A study of Homo sapiens with 16 samples.

Results

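The T-box genes TBX2, TBX3, TBX4 and TBX5 lie as 2 neighbouring pairs in the human genome, and the peaks around both pairs are described here in TC-32 and TC-71. Members were all listed peaks that overlap a window around TBX5 and TBX3 (chr12:114.70-115.20 Mb, hg19) or a window around TBX2 and TBX4 (chr17:59.45-59.58 Mb, hg19). They came to 54 of the 114213 intervals in the 6 deposited lists, 37 of them in the TBX5-TBX3 window and 17 in the TBX2-TBX4 window. The windows were chosen by acetylation already seen in these lists, where domains of TC-32 beside TBX5 ranked at the head of those missing from TC-71. H3K27ac values, and the overlap of SMC1 peaks with these domains, are therefore given as a description and support nothing.

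Both lines are established and come from Ewing sarcoma, a tumour of bone and soft tissue; the labels place TC-32 at diagnosis and TC-71 after chemotherapy. Chromatin of about 10000000 cells per sample was precipitated with antibodies against H3K27ac, a histone mark of active promoters and enhancers, against SMC1, a subunit of the cohesin ring that holds chromatin loops, or against BORIS (CTCFL), a germline paralog of the insulator protein CTCF. Input chromatin was sequenced alongside. There were 2 samples per line and antibody, 16 in all, but both samples of a group share 1 list, so no value here has a replicate error and no test between the lines was possible. Each state, diagnosis or after chemotherapy, is represented by 1 line, so state and line cannot be told apart.

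T-box genes encode transcription factors that bind DNA through a shared T-box domain. TBX5 and TBX4 are known for forelimb and hindlimb outgrowth, TBX5 also for the heart, and TBX3 and TBX2 are known mostly as repressors in limb, heart and mammary development. The pairs are thought to derive from duplication of 1 ancestral pair, so that TBX5 is the closest relative of TBX4 and TBX3 that of TBX2. In the RefSeq gene order (GRCh38.p14), RBM19, TBX5, TBX3 and MED13L follow each other among protein-coding genes on chromosome 12, and BCAS3, TBX2, TBX4 and NACA2 on chromosome 17. No protein-coding gene (0) lies between the members of either pair. TBX5-AS1 and other noncoding genes lie between TBX5 and TBX3, and LINC02875 lies between TBX2 and TBX4.

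Each window was divided at its midpoint (114.95 Mb on chromosome 12 and 59.515 Mb on chromosome 17). By gene order the lower part is called the TBX5 or TBX2 side and the upper part the TBX3 or TBX4 side. No hg19 gene annotation was used, so whether a peak lies in a promoter, exon or intron was not analysed here. Of the 4 genes, 2 had entries in the RefSeq promoter table. The outermost TBX5 start is shown because the widest acetylated domains of the windows lie on the TBX5 side. The 250 bases upstream of that start, on the minus strand at chr12:114408443-114408692 of GRCh38.p14, read 5′ to 3′ with CpG dinucleotides in capitals:
TBX5 promoter: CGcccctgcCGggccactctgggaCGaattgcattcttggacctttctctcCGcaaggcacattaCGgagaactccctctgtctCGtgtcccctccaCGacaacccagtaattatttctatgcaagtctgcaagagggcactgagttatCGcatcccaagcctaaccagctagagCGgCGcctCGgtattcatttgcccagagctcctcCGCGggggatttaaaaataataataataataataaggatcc
These coordinates belong to another build than the peaks and cannot be set against them. The stretch has 51.2% G or C and 13 CpG, beside medians of 58% and 11 over the 35116 upstream stretches of the table. On neither strand did it hold the T-box element GGTGTGA, the ETS-type pair GGAAGGAA or the CTCF-type core AGGGGGCGC, which 2.76%, 3.06% and 1.75% of those stretches hold. With no match (0) there was no overlap between motifs to resolve, and the absence of these letters says nothing about the factors.

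Acetylation on the TBX5 side was listed in TC-32 and not in TC-71. TC-32 had 16 domains there that covered 66.1 kb, or 26.5% of the side, and TC-71 had 0. On the TBX3 side the lines were close, with 3.82 kb covered in TC-32 and 3.43 kb in TC-71, of which 3.02 kb was the same sequence. Over the whole window this left 16 of 17 TC-32 domains with no TC-71 domain at the same place, and 0 of 2 TC-71 domains without one in TC-32. In the whole lists 52.9% of TC-32 domains lacked an overlapping TC-71 domain and 32.7% of TC-71 domains lacked one in TC-32.

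**Figure D1:**
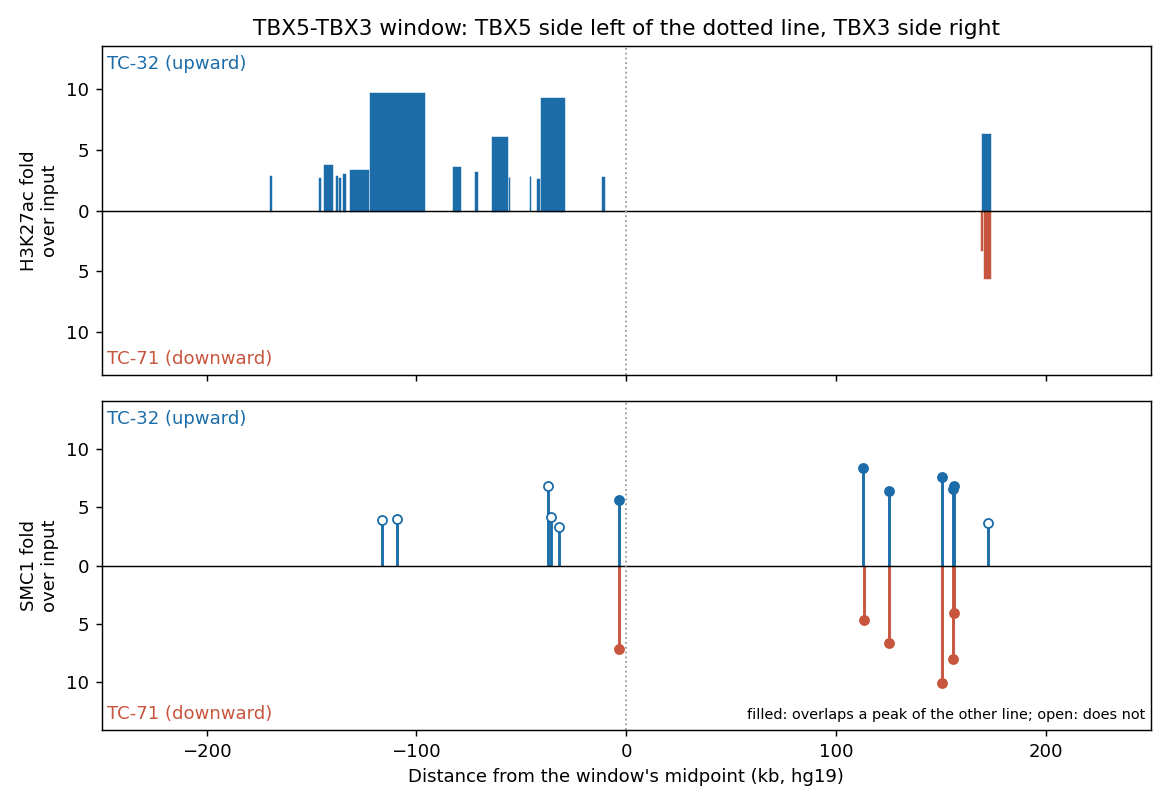
Listed peaks in the TBX5-TBX3 window by distance from its midpoint (kb); the height is the authors' fold enrichment over input, upward for TC-32 and downward for TC-71. Bars are H3K27ac domains at their width, stems are SMC1 peaks. Left of the midpoint stand 16 TC-32 domains and no TC-71 domain. SMC1 peaks of both lines stand on both sides, 6 of TC-32 and 1 of TC-71 on the left, 6 and 5 on the right.

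The strongest TBX5-side domain by −log10 q, the authors' adjusted significance by which peaks are ranked here, was chr12:114909629-114920588. It was 10.96 kb wide, with a fold enrichment over input of 9.31 and a −log10 q of 55.1, and it ranked 307 of 36355 TC-32 domains. Next came chr12:114827841-114853565, with a fold of 9.71 and a −log10 q of 53.8 at rank 351. Its 25.7 kb made it the 25th widest domain of the TC-32 list, whose median width was 1269 bp. The third, chr12:114886189-114893196, was 7.01 kb wide with a fold of 6.10 and a rank of 4618. These 3 are the TBX5-side members in the highest rank quartile of TC-32, where 7.47% of domains lacked a TC-71 overlap, and they held 43.7 of the 66.1 kb. In the next 3 quartiles, which hold the other 13 domains, the list share without a TC-71 overlap was 48.0%, 73.6% and 82.7%.

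The remaining 13 TBX5-side domains were weaker, with folds from 2.57 to 3.75 and widths from 250 to 8144 bp (median 943 bp). The widest of them, chr12:114818581-114826724, had a fold of 3.31 and the strongest, chr12:114806068-114809740, a fold of 3.75. In total 9 of the 16 had a −log10 q below 5, and 8 fell in the lowest quartile of the list, where 82.7% of all TC-32 domains had no TC-71 overlap. With weak domains removed, at a −log10 q under 5 in either line, 7 TC-32 domains had no TC-71 overlap, which with the TBX3-side domain still covered 63.7 kb. Lists of equal length left 8. TC-71 kept no domain (0) on the TBX5 side, since none was listed.

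Domains on the TBX5 side formed groups. With gaps of up to 12.5 kb joined, 7 domains made a group of 50.2 kb (chr12:114803379-114853565) and another 7 made a group of 52.9 kb (chr12:114867675-114920588), with 40.3 and 23.9 kb acetylated. The first and last TBX5-side domains, chr12:114780173-114780922 and chr12:114938378-114939585, stood alone. Beyond the last one, 180 kb followed without a listed domain in TC-32 before the TBX3-side domain.

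That domain was the acetylated place the lines had in common in this window. TC-32 listed 1 domain, chr12:115119489-115123311, with a fold of 6.35, a −log10 q of 25.7 and a place in the top 12.3% of its list. TC-71 listed 2, chr12:115120592-115123513 with a fold of 5.61, a −log10 q of 20.0 and a place in the top 14.9%, and the small chr12:115119279-115119788 with a fold of 3.28. TC-71 domains covered 79.0% of the TC-32 domain.

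Outside the window acetylation was sparse in both lines. The nearest domain on the lower side was again common to both, at chr12:114402844-114404772 with a fold of 3.13 (TC-32) and chr12:114403440-114404547 with a fold of 3.90 (TC-71), 295 kb below the window in each. Above the window the nearest domain was 836 kb away in TC-32 and 1349 kb away in TC-71. In the 500 kb above, all lists held 0 peaks.

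Cohesin in the TBX5-TBX3 window fell into peaks listed in both lines and peaks of TC-32 alone. TC-32 had 12 SMC1 peaks and TC-71 had 6, and all 6 of TC-71 overlapped a TC-32 peak. The other 6 TC-32 peaks had no TC-71 partner, near the 49.7% of the whole TC-32 list. In TC-71 the share without a partner was 0 of 6 against 9.69% in its list. Lists of equal length left 1 TC-32 peak without a partner, so most of these peaks are among those that the longer TC-32 list adds.

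On the TBX5 side, 5 of 6 TC-32 SMC1 peaks were listed in TC-32 alone, beside 49.7% in the whole list. All 5 lay inside the 2 top-ranked acetylated domains. The 25.7 kb domain held chr12:114833705-114833842 (fold 3.92) and chr12:114840866-114841112 (fold 3.99). The 10.96 kb domain held chr12:114912646-114913293, a peak of 648 bp with 2 summits and a fold of 6.81, then chr12:114914080-114914260 (fold 4.19) and chr12:114917857-114918037 (fold 3.34). The first of these stood at the top 45.8% of the TC-32 SMC1 list, the other 4 in its lowest quartile. In the quartile of the first, 34.7% of the list had no TC-71 partner, and in the lowest quartile 89.2%. TC-71 listed neither acetylation nor an SMC1 peak at these 5 places, and whether the absences are linked was not tested. The remaining TBX5-side peak was common to both lines, at chr12:114946346-114946683 in TC-32 (fold 5.67, −log10 q 22.01) and chr12:114946457-114946627 in TC-71 (fold 7.16, −log10 q 13.3). It lay 6.76 kb from the nearest TC-32 domain, and outside acetylation in both lines.

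On the TBX3 side 5 of 6 TC-32 SMC1 peaks, and all 5 of TC-71, were common to the lines and lay outside acetylation. In the whole lists 49.7% of TC-32 and 9.69% of TC-71 SMC1 peaks had no partner. Only 25.9% and 13.6% there lay inside acetylation of their own line, so a place outside it is not particular to this side. The strongest peak of the window in both lists was chr12:115100443-115100699 in TC-32, with a fold of 7.64 and a −log10 q of 43.1, and chr12:115100487-115100712 in TC-71, with a fold of 10.1 and a −log10 q of 34.4. It stood in the top 18.8% of the TC-32 list and the top 10.6% of the TC-71 list. A close pair followed in both lines. Its first peak, chr12:115105974-115106181 in TC-32, had folds of 6.58 in TC-32 and 8.03 in TC-71, and its second, chr12:115106297-115106670, had folds of 6.80 and 4.10. Further towards TBX5 lay chr12:115075003-115075215 with folds of 6.44 and 6.63, and chr12:115063066-115063282 with folds of 8.41 and 4.66. These 5 peaks were 12.8 to 56.2 kb from the acetylated domain in TC-32. The 6th, chr12:115122104-115122506, lay inside that domain, was weak (fold 3.68) and was listed in TC-32 alone, although the place was acetylated in both lines. Between the TBX5 and TBX3 sides, 116 kb in TC-32 and 117 kb in TC-71 passed without an SMC1 peak.

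The TBX2-TBX4 window carried more listed acetylation in TC-71 than in TC-32. Domains covered 0.904 kb of it in TC-32 (0.695%) and 3.67 kb in TC-71 (2.82%), a ratio of 4.06. This ratio was 2.07 with peaks within 1 kb merged and 7.67 at a −log10 q of at least 5. Both TC-32 domains met acetylation of TC-71, while 52.9% of the whole TC-32 list had no TC-71 overlap. Of the TC-71 domains, 3 of 4 had no TC-32 partner, against 32.7% in the whole TC-71 list. Of these 3, 2 were in the lowest quartile of that list, where 65.4% had no partner. On the TBX4 side TC-71 had 2 domains and TC-32 had 0, the reverse of the TBX5 side in which line was acetylated. These 2 covered 1.57 kb, far less than the 66.1 kb of TC-32 on the TBX5 side.

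**Figure D2:**
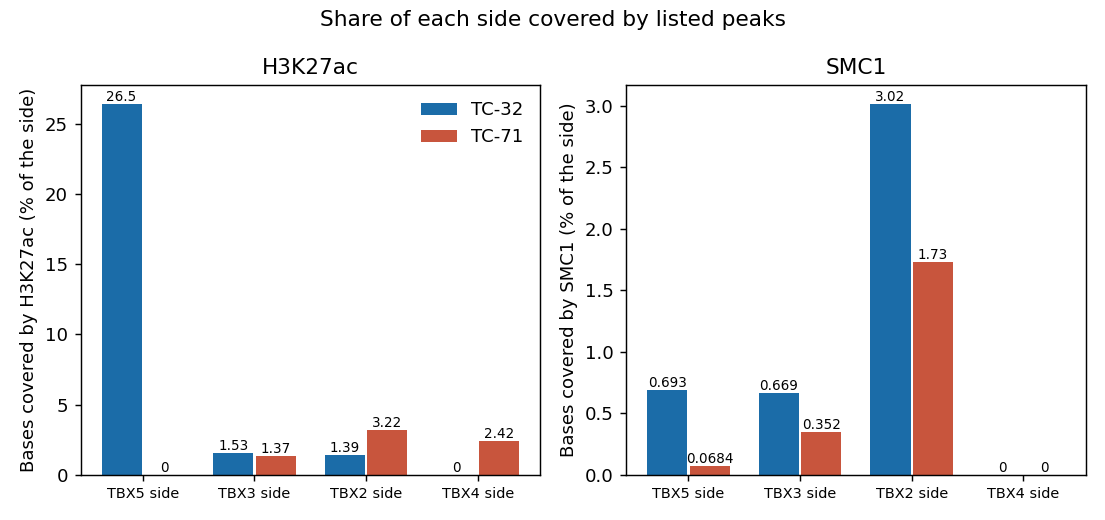
Share of the bases of each side covered by H3K27ac domains (left) and SMC1 peaks (right), in percent, for TC-32 and TC-71; each bar is 1 list, so there are no error bars. The TBX5 side stands at 26.5% H3K27ac in TC-32 and 0 in TC-71, and the TBX4 side shows 2.42% in TC-71 against 0 in TC-32.

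The strongest acetylation of this window was TC-71's chr17:59529087-59530444 on the TBX4 side, 1358 bp wide with a fold of 5.32 and a −log10 q of 20.9. It stood in the top 13.8% of the TC-71 list, and in the highest quartile of that list 1.97% of domains lacked a TC-32 overlap. The nearest TC-32 domain was 38.7 kb away. TC-71 also listed chr17:59563962-59564176, a domain of 215 bp with a fold of 2.63 and a −log10 q of 2.32, close to the weakest listed value of 2.002.

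On the TBX2 side a weak acetylated place was common to the lines. TC-71 listed 1 domain of 1864 bp, chr17:59488470-59490333, with a fold of 3.38 and a −log10 q of 7.44. TC-32 listed 2 shorter ones within or across its edge, chr17:59488651-59489134 with a fold of 3.50 and chr17:59490000-59490419 with a fold of 3.58. The folds are close, and joining peaks within 1 kb turned the TC-32 domains into 1 of 1.77 kb. A further TC-71 domain of 232 bp, chr17:59486615-59486846, had a fold of 2.70 and no TC-32 partner. At a −log10 q of at least 5, the TBX4-side domain chr17:59529087-59530444 was the 1 TC-71 domain left without a partner.

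Cohesin in this window was listed on the TBX2 side alone, with 6 peaks in TC-32, 5 in TC-71 and 0 in either line on the TBX4 side. All 5 TC-71 peaks had a TC-32 partner, and in the whole TC-71 list 9.69% had none. The strongest in both lines was chr17:59467325-59467652 in TC-32, with a fold of 13.6 and a −log10 q of 91.6, and chr17:59467303-59467612 in TC-71, with a fold of 14.0 and a −log10 q of 61.7. It was in the top 2.94% and the top 1.38% of the lists, and 21.0 kb from the nearest acetylation in TC-32 and 19.0 kb in TC-71.

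**Figure D3:**
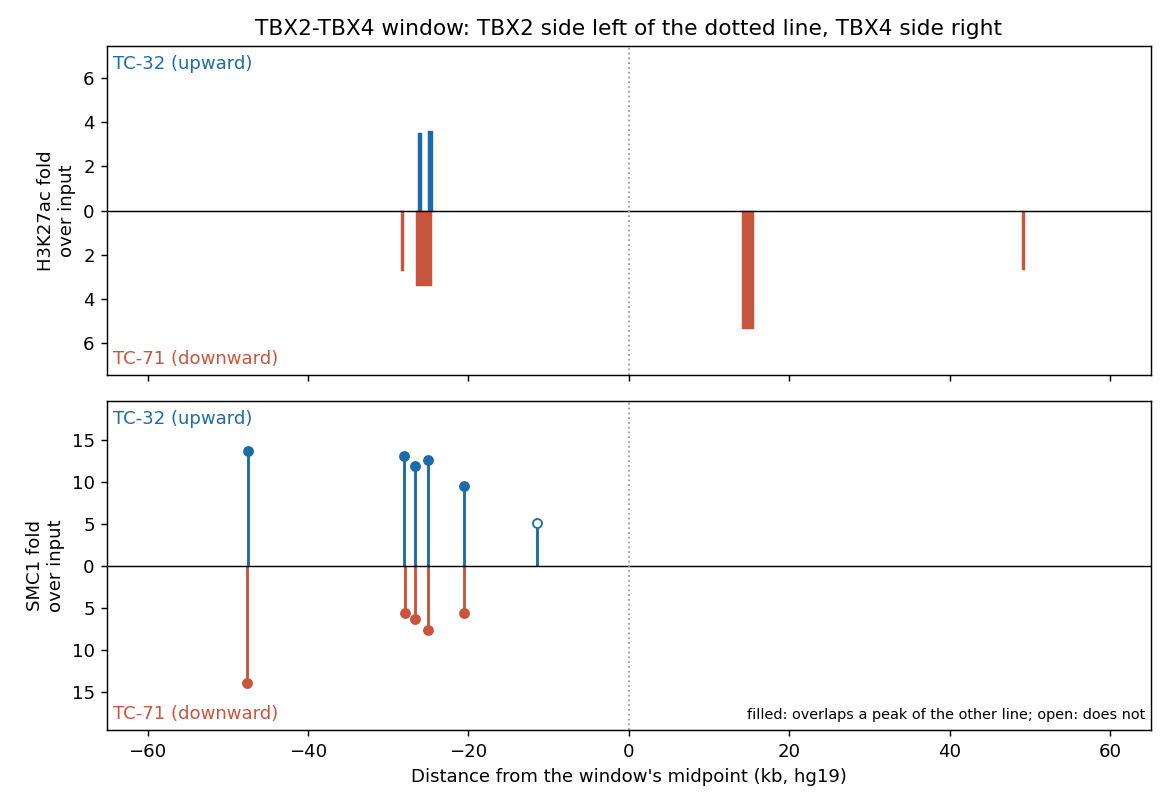
Listed peaks in the TBX2-TBX4 window by distance from its midpoint (kb); the height is the authors' fold enrichment over input, upward for TC-32 and downward for TC-71. SMC1 stems stand on the TBX2 side alone, 6 in TC-32 and 5 in TC-71, and the TBX4 side holds 2 H3K27ac domains of TC-71.

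A cluster of 4 SMC1 peaks followed at and around the acetylated place, up to 3.81 kb from the nearest TC-32 domain and 3.98 kb from the nearest TC-71 domain. For chr17:59486720-59487197 the fold was 13.1 in TC-32 and 5.69 in TC-71, and for chr17:59488219-59488482 it was 11.8 and 6.41. At chr17:59489732-59490083, the 1 place where SMC1 and acetylation met in both lines, it was 12.54 and 7.72. Last came chr17:59494228-59494616 with 9.44 and 5.68. TC-32 had the higher fold at all 4, but folds of lists called separately also follow depth and enrichment, and list medians were 6.48 in TC-32 and 6.16 in TC-71. The weak chr17:59503509-59503660 (fold 5.10) was listed in TC-32 alone, as were 89.2% of SMC1 peaks in the lowest quartile of that list, where it stood.

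Over both windows, 11 SMC1 places were common to the lines, and their summits were 1 to 29 bp apart (median 11 bp). Of these 11, 1 lay in acetylation in TC-32 and 1 in TC-71. Of the 7 TC-32 peaks with no partner, 6 lay in TC-32 acetylation, 5 of them in the top-ranked TBX5-side domains. The whole lists had 25.9% of TC-32 and 13.6% of TC-71 SMC1 peaks inside acetylation of their own line. Because the windows were chosen for TC-32 acetylation, the count cannot be weighed against these shares. A link between cohesin and acetylation was not tested. The unpartnered peaks were also the weaker ones, with folds of 3.34 to 6.81 against 5.67 to 13.6 for the partnered, and 6 of 7 were in the lowest quartile of the TC-32 list, which held 0 of the 11. In that quartile 89.2% of all TC-32 SMC1 peaks had no TC-71 partner, against 8.56% in the highest quartile, so the count in these windows is near the share of the list at the same rank.

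**Figure D4:**
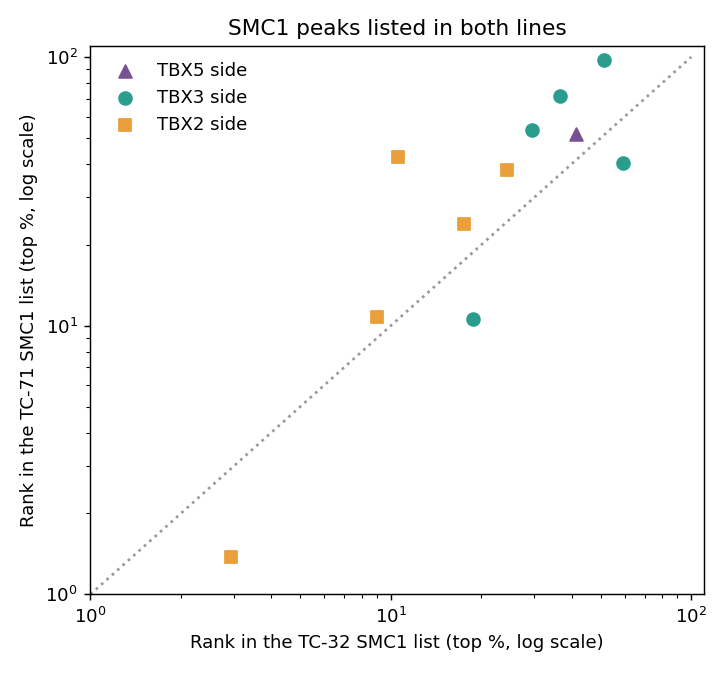
Place of the 11 SMC1 peaks common to both lines in the TC-32 list (x axis) and the TC-71 list (y axis), as top percent by −log10 q on log scales; each point is 1 peak and the dotted line marks equal places. The strongest TBX2-side peak is in the top 2.94% and 1.38%, and TBX3-side peaks spread from 10.6% to 97.3% in TC-71.

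BORIS was listed at none (0) of these places in either line. The whole lists hold 534 BORIS peaks in TC-71 and 6 in TC-32. In TC-71 the nearest BORIS peaks to the TBX5-TBX3 window were chr12:106751367-106751592 (fold 5.35), 7.95 Mb below it, and chr12:120105464-120105626 (fold 8.11), 4.91 Mb above it. Around the TBX2-TBX4 window they were chr17:58217311-58217412 (fold 4.31), 1.23 Mb below, and chr17:61912329-61912488 (fold 3.37), 2.33 Mb above. The nearest TC-32 BORIS peaks were 31.9 Mb and 2.71 Mb away, at chr12:82752200-82752289 and chr17:56736475-56736563. With 534 and 6 BORIS peaks in the whole lists, most stretches of this length hold none. The absence is therefore not particular to these windows, and a role of BORIS in the acetylation of either side was not tested.

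The surroundings of the TBX2-TBX4 window differed between the lines as well. In the 500 kb below, TC-32 had 6 domains over 5.86 kb, 5 of them without a TC-71 partner, and TC-71 had 1 over 0.213 kb. In the 500 kb above, TC-71 had 8 domains over 10.5 kb, 6 of them without a TC-32 partner, and TC-32 had 2 over 3.999 kb. In the whole lists 52.9% of TC-32 and 32.7% of TC-71 domains had no partner. Acetylation listed in TC-71 alone was thus not particular to the TBX4 side. All 5 SMC1 peaks of each line in that upper flank had a partner, while in the lower flank 3 of 6 in TC-32 and 0 of 3 in TC-71 had none, beside 49.7% and 9.69% in the whole lists. Just outside the window edges, the nearest SMC1 peaks were chr17:59436285-59436455 in TC-32 (fold 5.86) and chr17:59426857-59427008 in TC-71 (fold 6.46) below, and a common peak 48.6 kb above with folds of 12.2 and 7.90. Below the TBX5-TBX3 window the nearest SMC1 peak was 95.5 kb away in TC-32 (fold 5.195) and 800 kb away in TC-71 (fold 8.42). The 500 kb below held 5 SMC1 peaks of TC-32, all 5 without a partner, and 0 of TC-71, beside 49.7% without one in the TC-32 list. That stretch had 1 H3K27ac domain per line, common to both. SMC1 peaks of TC-32 alone were thus not particular to the TBX5 side. Copy number was not analysed here.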

How the data were processed

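Peak lists of TC-32 and TC-71 were analysed for H3K27ac, SMC1 and BORIS, 1 list per line and antibody for 2 samples. Among the tools in the submitters' processing notes are MACS2 2.1.1 and STAR 2.5.1b, with deepTools 2.2.4, Picard and SAMtools 1.3.1, and the build is hg19. The sources used here give neither their roles and settings nor the way the 2 samples of a group were joined. Per peak the authors deposited a fold enrichment ratio over input, a −log10 p, a −log10 q and a score (the −log10 q times 10, cut to a whole number), and for narrow peaks a summit offset (another deposited value). Peak lists do not give the read depth, which is therefore unknown and can change the length of a list.

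Intervals listed with several summits were counted once with the values of the summit of highest −log10 q. Chromosomes 1 to 22 and X were used, which gave 36355 (TC-32) and 26334 (TC-71) H3K27ac, 32720 and 18264 SMC1, and 6 and 534 BORIS intervals. Coordinates count from 1. Overlap meant at least 1 bp, and ranks and quartiles follow −log10 q within a list. Described peaks were, per window and line, the 5 highest-ranked H3K27ac domains and SMC1 peaks, the 3 widest domains and the nearest BORIS peaks; others were named after their values were seen. The windows and rules were chosen with earlier results of these data known. Other T-box genes were not analysed here. Python 3.11.15, numpy 2.4.6, pandas 2.3.3 and matplotlib 3.10.9 were used, and the overlap code was tested on 500 simulated intervals, with 0 wrong overlaps.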

Additional observations from a re-analysis of the deposited data

How the results depend on the processing

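No paired analysis was possible because both samples of a group share 1 list, and for the same reason no replicate could be left out. Of 72 values under 6 alternatives, 61 stayed within 1.5 times the value as reported or stayed at 0, and 11 moved. None changed which line was more acetylated in a window. Some of the 61 could not move. No member peak crosses a window edge, so the midpoint rule changed nothing, and equal length leaves the shorter TC-71 lists as they are. The tally is therefore no measure of robustness. At a −log10 q of at least 5, TC-32 domains without a TC-71 overlap in the TBX5-TBX3 window fell to 7, TC-71 domains without a TC-32 overlap in the TBX2-TBX4 window to 1, and TC-32 acetylation in that window to 0.42 kb; this threshold removes weak peaks by construction. Lists of equal length left 8 TC-32 domains and 1 TC-32 SMC1 peak without a partner in the TBX5-TBX3 window, gave 1 unpartnered TC-71 SMC1 peak there, and left 0 unpartnered TC-32 SMC1 peaks in the TBX2-TBX4 window. In the latter window, 50% of the peak covered gave 2 unpartnered TC-32 SMC1 peaks, joining peaks within 1 kb gave 1.769 kb of TC-32 acetylation, and widening by 100 kb gave 1 unpartnered TC-32 domain and 2 unpartnered TC-32 SMC1 peaks. For BORIS, the alternative that could have added a peak, widening by 100 kb, gave 0; the others can only remove or join listed peaks.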
